A study of Mus musculus with 6 samples.

Results

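Molecular chaperones were described here in naive CD8 T cells that had been sorted by the brightness of a Nur77-GFP reporter. The members were the genes of the deposited table whose symbol begins with Hsp, Dnaja, Dnajb, Dnajc, Cct or Bag in the form used for heat-shock proteins, J-domain proteins, subunits of the chaperonin TRiC and BAG co-chaperones. They numbered 74 of the 11162 genes listed, in 11 families. The table held 6 RNA sequencing libraries, 3 of GFP-hi and 3 of GFP-lo cells. All 6 came from mouse spleen cells of the genotype Nur77-GFP (Tg(Nr4a1-EGFP)GY139Gsat), a transgene in which regulatory sequence of Nr4a1 drives green fluorescent protein. In both populations the cells carried the OT-I T-cell receptor and had been gated as CD8+, CD44lo and Qa2hi, among other markers, so the populations differed by the gate on GFP alone. The reporter reads recent T-cell receptor signalling through a transgene, not through the Nr4a1 gene itself, and age and sex of the mice were not given in the sources used here. The labels do not say whether the 3 samples of a population came from separate mice, so p-values measure the spread between these samples, which may be technical.

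Chaperones bind unfolded or newly made proteins and help them fold. HSP70 proteins do so in cycles of ATP use, in which J-domain proteins (DNAJ) deliver the client and HSP110 and BAG proteins release it. HSP90 acts later on kinases and receptors, the HSP60 and HSP10 chaperonin works inside mitochondria, and TRiC folds actin and tubulin in the cytosol. When unfolded protein builds up, the heat shock factor Hsf1 switches on a small set of these genes within minutes, foremost Hspa1a, Hspa1b, Dnajb1, Hsph1 and Hspb1, while most other members are made at a steady level.

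The values were RPKM, read counts scaled by gene length and by library depth, so levels of different genes can be compared per length. Recovered depths ran from 26172000 to 35940000 reads per library, and an RPKM of 1 for a 1 kilobase transcript rested on 26.17 to 35.94 reads. CD8 T cell markers were high, with Cd8a from 90.9 to 107 RPKM, Cd8b1 from 785 to 839 RPKM and Cd3e from 192 to 209 RPKM per library. Of the markers of other cells, Cd79b, Ms4a1 and Cd74 of B cells summed to 13.1 to 16.8 RPKM, 1 of 6 for myeloid cells was listed at 0.16 to 0.431 RPKM, and 1 of 6 for erythroid cells at 0.047 to 1.94 RPKM. The NK cell list, of which Klrd1 and Eomes were listed of 4 genes, summed to 68.2 to 78.1 RPKM. Most of this was Klrd1, at 62.2 to 72.6 RPKM, with Eomes at 5.49 to 8.14 RPKM, and which cells held these transcripts was not tested. Of 4 CD4 T cell markers Cd40lg alone was listed, at 14.2 to 46.8 RPKM. The defining genes Cd4, Csf1r, Ncr1 and Alas2 were not listed. Replicate 2 of each population stood apart from the other 4 libraries in some of the genes described here, the heat-inducible ones among them, and not in others. Replicates are numbered by the order of the records, and the number does not say that libraries of 1 number belong together. This division was known from earlier results, so it is described without a test, and comparisons between the populations are given with and without these 2 libraries.

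The sequences before the starts of members that were high in the replicate 2 libraries are shown with the heat shock element in capitals, the site at which Hsf1 binds. It was searched as GAANNTTC and as TTCNNGAA, each of which reads the same on both strands, so both strands were covered, and overlapping matches were kept. The search covered 250 bases before to 50 bases after each gene start in RefSeq (GRCm38.p6), and the 250 bases before the start are printed, 5′ to 3′. Hspa1a (chr17:34972157-34972406, minus strand) and Hspb1 (chr5:135887669-135887918, plus strand) hold GAANNTTC before the start. Hspe1 (chr1:55087898-55088147, plus strand) holds both forms in a run, and Hsph1 (chr5:149636337-149636586, minus strand) holds TTCNNGAA.
Hspa1a: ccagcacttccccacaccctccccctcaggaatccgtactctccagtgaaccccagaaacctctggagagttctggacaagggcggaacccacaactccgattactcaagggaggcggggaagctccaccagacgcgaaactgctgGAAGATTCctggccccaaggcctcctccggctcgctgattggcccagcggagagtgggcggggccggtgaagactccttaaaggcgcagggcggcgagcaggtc
Hspb1: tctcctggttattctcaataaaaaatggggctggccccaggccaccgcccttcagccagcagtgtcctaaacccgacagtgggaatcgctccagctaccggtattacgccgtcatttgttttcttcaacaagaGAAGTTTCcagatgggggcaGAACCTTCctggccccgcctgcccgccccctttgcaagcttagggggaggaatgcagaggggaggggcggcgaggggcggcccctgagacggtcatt
Hspe1: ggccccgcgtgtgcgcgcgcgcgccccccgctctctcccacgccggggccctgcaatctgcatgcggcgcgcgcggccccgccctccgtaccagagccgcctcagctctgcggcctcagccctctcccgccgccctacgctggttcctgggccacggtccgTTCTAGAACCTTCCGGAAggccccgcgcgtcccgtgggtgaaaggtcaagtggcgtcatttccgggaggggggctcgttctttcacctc
Hsph1: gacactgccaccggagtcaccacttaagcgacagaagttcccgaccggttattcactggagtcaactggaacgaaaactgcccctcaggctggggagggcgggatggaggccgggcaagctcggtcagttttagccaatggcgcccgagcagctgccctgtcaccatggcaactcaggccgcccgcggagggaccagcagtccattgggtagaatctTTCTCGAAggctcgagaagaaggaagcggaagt

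In Hspa1a the match began 104 bases before the start, and in Hspb1 matches began 117 and 97 bases before it. In Hspe1 they began 89, 84 and 79 bases before the start, which makes an unbroken row of alternating units. In Hsph1 a match began 33 bases before the start, and 2 more lay within the first 50 bases after it. The Hspe1 window overlaps a window of Hspd1 on the opposite strand, since these genes start next to each other and run apart. The Hspa1b window (chr17:34959189-34959488, minus strand) equals that of Hspa1a at 296 of 300 positions, with its match at the same place. A window was given for 61 of the 74 members. Among those tested, GAANNTTC was found in 8 of 18 members that were highest in both replicate 2 libraries and in 4 of 37 other members, and TTCNNGAA in 5 of 18 and 3 of 37. In all 27025 genes with a window these shares were 9.04% and 9.6%. The run of Hspe1 and that of Hspd1 are the same bases read on opposite strands, and they were counted for both genes. Hspa1a and Hspa1b were each counted too, so the members that hold a match are not all separate sequences. The windows of Dnajb1 and that of Hspa1l held neither form. A match is a description of these letters and not a binding site.

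Hspa5 encodes BiP, the HSP70 of the endoplasmic reticulum. It is counted among the 18 members above, with replicate 2 at 1.11 and 1.09 times the other libraries of GFP-hi and GFP-lo. The element that answers stress in that compartment is shown in capitals in the 250 bases before the Hspa5 start (chr2:34771840-34772089, plus strand).
Hspa5: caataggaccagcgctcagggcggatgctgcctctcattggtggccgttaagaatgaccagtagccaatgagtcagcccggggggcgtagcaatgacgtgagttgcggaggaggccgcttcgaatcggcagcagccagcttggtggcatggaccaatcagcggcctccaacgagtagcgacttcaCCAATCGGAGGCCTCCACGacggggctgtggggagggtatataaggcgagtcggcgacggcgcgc

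The element of Hspa5, the endoplasmic reticulum stress response element searched on both strands, began 65 bases before the start and was present in 0.137% of genes with a window and in 3 of 61 members. In Dnaja4, which differed between the populations, GAANNTTC was found 90 and 52 bases before the second of its RefSeq starts.

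Inducible HSP70 transcripts were among the most abundant of all. Hspa1b (Entrez 15511) stood at 360, 1904 and 344 RPKM in GFP-hi replicates 1 to 3 and at 503, 2133 and 465 RPKM in GFP-lo replicates 1 to 3. It ranked first of all listed genes in both replicate 2 libraries and between 12 and 22 in the other 4. Hspa1a (Entrez 193740) had 158, 1100 and 152 RPKM in GFP-hi and 235, 1234 and 211 RPKM in GFP-lo. Replicate 2 thus reached 7.11 times the mean of the other 2 libraries in GFP-hi and 5.53 times in GFP-lo for Hspa1a, and 5.41 and 4.41 times for Hspa1b. Hspa1l, a relative best known from testis, had 4.55, 27.6 and 3.78 RPKM against 8.63, 30.9 and 6.14 RPKM. The populations overlapped in each of these genes, since a high library lay in each population. In sorted bulk samples, a larger share of cells with the transcript and more of it per cell cannot be told apart.

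Hspa1a and Hspa1b lie 9951 bases apart on chromosome 17 (Hspa1a chr17:34969190-34972156, Hspa1b chr17:34956436-34959238, both on the minus strand), and Hspa1l starts 546 bases beyond Hspa1a on the plus strand (mm10, GENCODE M21). Of the stretches of 50 bases in their transcripts, 58.8% of those of Hspa1a occur in Hspa1b and 62.3% of those of Hspa1b in Hspa1a. How the authors' counting divided such reads is not given in the sources used here, so the split between these genes is uncertain. Their sum was 517, 3004 and 496 RPKM in GFP-hi and 738, 3367 and 676 RPKM in GFP-lo. Of Hspa1l, 71.4% of the stretches occur in the predicted gene Gm10501 and 9.6% in Hspa1a, so its values are uncertain too.

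The constitutive HSP70 of the cytosol, Hspa8, had 164, 253 and 165 RPKM in GFP-hi and 159, 249 and 169 RPKM in GFP-lo. Its replicate 2 values were 1.54 and 1.52 times the mean of the other libraries of their population. In HSP70 genes of other compartments the replicate 2 libraries differed less. Hspa5 had 114, 128 and 117 RPKM in GFP-hi and 109, 122 and 115 RPKM in GFP-lo. Hspa9, the mitochondrial HSP70, had 51.9, 52 and 54 RPKM in GFP-hi and 58.9, 59.4 and 55.8 RPKM in GFP-lo. For Hspa9 the replicate 2 libraries stood at 0.982 and 1.04 times the others of their population. Its 3 GFP-hi libraries lay below the 3 GFP-lo libraries, without passing the test (log2 fold change -0.14, limma adjusted p = 0.19). Groups did not overlap in 26.9% of genes tested. Hspa14, which with Dnajc2 forms a chaperone on the ribosome, had 15.3, 12.7 and 14 RPKM in GFP-hi and 11.6, 11.6 and 13 RPKM in GFP-lo.

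**Figure D1:**
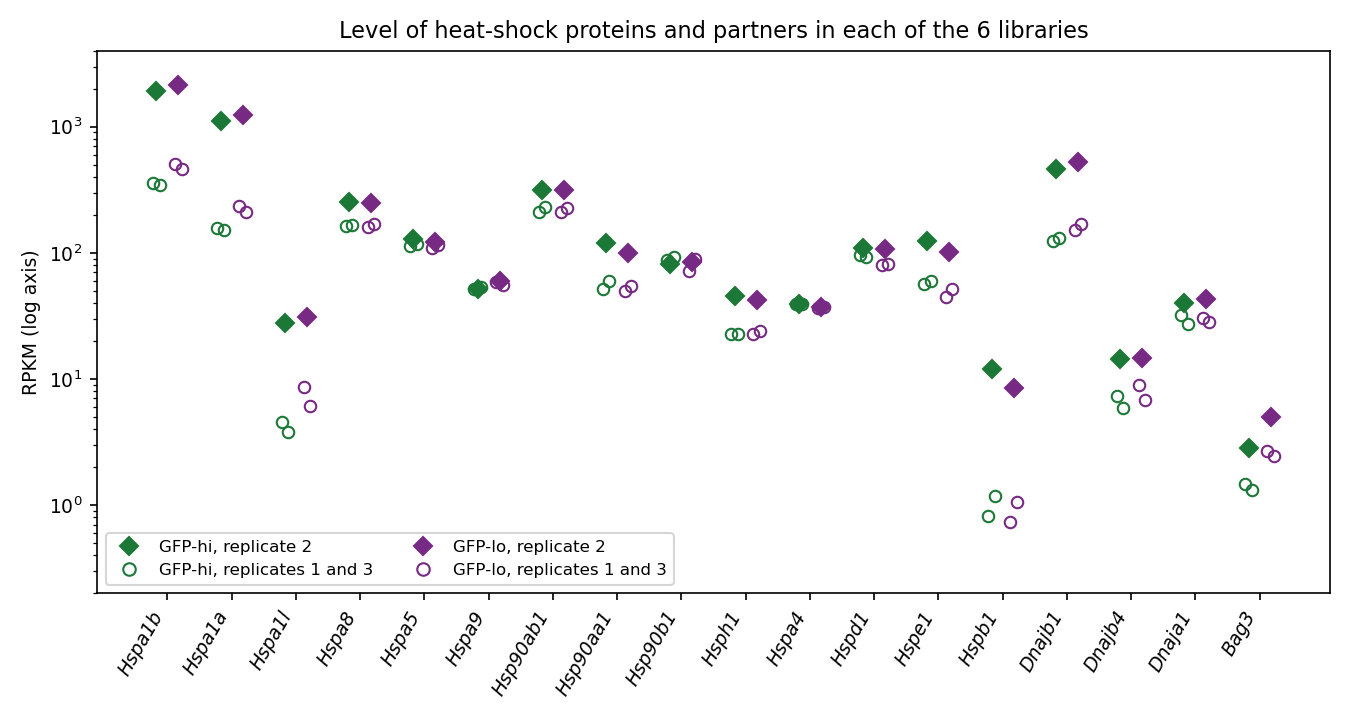
RPKM on a log axis of 18 members in each library, with GFP-hi in green, GFP-lo in purple, replicate 2 as filled diamonds and replicates 1 and 3 as open circles. Diamonds lie above the circles of both colours in Hspa1a, Hspa1b, Hspa1l, Hspb1 and Dnajb1, and within the range of the circles in Hsp90b1.

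Among genes that release or take over HSP70 clients, both replicate 2 libraries lay above the other 4 in 1 of 3 HSP110 and 2 of 3 HSP90 genes. Over all genes tested the share was 9.35%. Hsph1, the stress-induced HSP110, had 22.6, 45.8 and 22.6 RPKM in GFP-hi and 22.8, 42.1 and 24.1 RPKM in GFP-lo. Hspa4, its constitutive relative, had 39.4, 39.3 and 39.6 RPKM in GFP-hi and 36.6, 37 and 36.9 RPKM in GFP-lo. Its replicate 2 libraries did not stand apart. Its populations did not overlap, as in 26.9% of genes tested, but it did not pass the test (log2 fold change 0.10, limma adjusted p = 0.29). Of the cytosolic HSP90 pair, the inducible Hsp90aa1 had 51.7, 119 and 59.7 RPKM against 49.8, 100 and 54.7 RPKM. The constitutive Hsp90ab1 had 210, 315 and 232 RPKM against 210, 314 and 227 RPKM. Replicate 2 stood at 2.14 and 1.92 times the mean of the others for Hsp90aa1 and at 1.42 and 1.44 times for Hsp90ab1. Hsp90b1, the HSP90 of the endoplasmic reticulum, stood at 0.898 times in GFP-hi and 1.05 times in GFP-lo.

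In the mitochondrial chaperonin genes replicate 2 was high too. Hspe1, which encodes the HSP10 lid, had 56.2, 125 and 60.1 RPKM in GFP-hi and 44.5, 102 and 51.4 RPKM in GFP-lo. Hspd1, which encodes the HSP60 ring, had 96.8, 110 and 91.9 RPKM against 79.8, 108 and 82 RPKM. Replicate 2 was highest in both populations for both genes, at 2.15 and 2.13 times the others for Hspe1 and 1.16 and 1.33 times for Hspd1. The small heat-shock protein gene Hspb1, which encodes a holdase that keeps clients soluble, was near the minimum level in 4 libraries and had the largest ratios, 11.9 and 9.39 times the others. It had 0.824, 11.9 and 1.19 RPKM in GFP-hi and 0.729, 8.41 and 1.06 RPKM in GFP-lo, and it passed the minimum mean of 1 RPKM through the replicate 2 libraries. Stretches of 50 bases shared with other genes or pseudogenes made up 51.6% of Hspb1, 58.5% of Hsp90aa1, 52.7% of Hspa8 and 44.8% of Hspd1, so reads of these genes could have been assigned elsewhere.

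Among J-domain genes Dnajb1 stood furthest apart. Dnajb1, the main partner of inducible HSP70, had 123, 458 and 131 RPKM in GFP-hi and 153, 523 and 170 RPKM in GFP-lo. Dnajb4, a close relative, had 7.33, 14.3 and 5.91 RPKM against 9, 14.7 and 6.87 RPKM, and Dnaja1 had 32.2, 40 and 27.5 RPKM against 30.6, 43.2 and 28.3 RPKM. In these 3 genes the replicate 2 library was the highest of its population and the populations overlapped. Of the 21 DNAJC genes tested 1 had both replicate 2 libraries above the other 4, against 9.35% of all genes tested. It was Dnajc21, a ribosome assembly factor named after its values were seen, with 4.8, 5.92 and 5.35 RPKM against 4.92, 5.88 and 5.73 RPKM. Dnajc13, an endosome protein, went the other way in GFP-hi, with 12, 8.15 and 13 RPKM, but not in GFP-lo, with 10.7, 11.5 and 12.5 RPKM. Dnajb5, with 1.9, 1.28 and 1.85 RPKM against 1.2, 1.37 and 1.45 RPKM, was likewise lowest in replicate 2 within GFP-hi but not within GFP-lo, and Dnajc18 ranged from 4.21 to 4.88 RPKM over all 6 libraries.

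BAG proteins split by member. Bag3, a stress-induced exchange factor that links HSP70 to autophagy, had 1.48, 2.84 and 1.32 RPKM in GFP-hi and 2.68, 5.03 and 2.46 RPKM in GFP-lo. Replicate 2 was highest in each population, and the GFP-lo libraries exceeded the GFP-hi libraries within each side of the replicate 2 division. Bag6, which guards membrane proteins before insertion, was the only tested member with both replicate 2 libraries below the other 4, at 6.92 against 8.38 and 8.34 RPKM in GFP-hi and at 7.35 against 9.17 and 8 RPKM in GFP-lo. Both lay below in 8.21% of all genes tested. Bag5, which holds several BAG domains, had 11.3, 12.6 and 10.5 RPKM against 11.3, 11.8 and 11 RPKM. Bag1, which also binds Bcl-2, had 28.7, 31.1 and 28.1 RPKM against 24.3, 26.6 and 25.6 RPKM.

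Over all members, both replicate 2 libraries lay above all other 4 in 22 of the 67 members tested (32.8%), against 9.35% of the 9351 genes tested. Both lay below in 1 member (1.49%), against 8.21% of genes tested. The 22 comprised 5 of 8 HSP70, 2 of 3 HSP90, 2 of 2 HSP60 and HSP10, 3 of 7 CCT, 2 of 6 BAG and 1 of 21 DNAJC genes among others. Replicate 2 was higher by at least 0.5 on the log2(RPKM + 1) scale in both populations in 12 members (17.9%), against 0.471% of genes tested, and by at least 1 in 6 members (8.96%), against 0.128%. Those 6 were Hspa1a, Hspb1, Hspa1b, Hspa1l, Dnajb1 and Hspe1, of 12 such genes in the whole table. The other 6 genes, named after their values were seen, were Phlda1, Ctla2a, Slc15a2, Rasd1, Ctse and Egr1. Ctse had 48.9, 55.1 and 9.31 RPKM in GFP-hi and 60.7, 59.6 and 8.43 RPKM in GFP-lo. Its difference, taken from the mean of replicates 1 and 3, thus came from low replicate 3 libraries, and replicate 2 did not stand apart. Of these 12 genes, Hspb1 and Slc15a2 passed the minimum mean level only through the replicate 2 libraries in which they were high. Hspb1 is counted in each share of members high in replicate 2. Ranked by the mean of the 2 differences, the members Hspa1a, Hspb1, Hspa1b and Hspa1l held ranks 1 to 4 of all genes tested. The members chosen for this report include genes whose height in replicate 2 was already known, so these shares describe the pattern and do not test it. Of 8 members assigned by hand to the endoplasmic reticulum, after values were seen, 1 had both replicate 2 libraries above the others, and of 8 assigned to mitochondria 2 did.

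**Figure D2:**
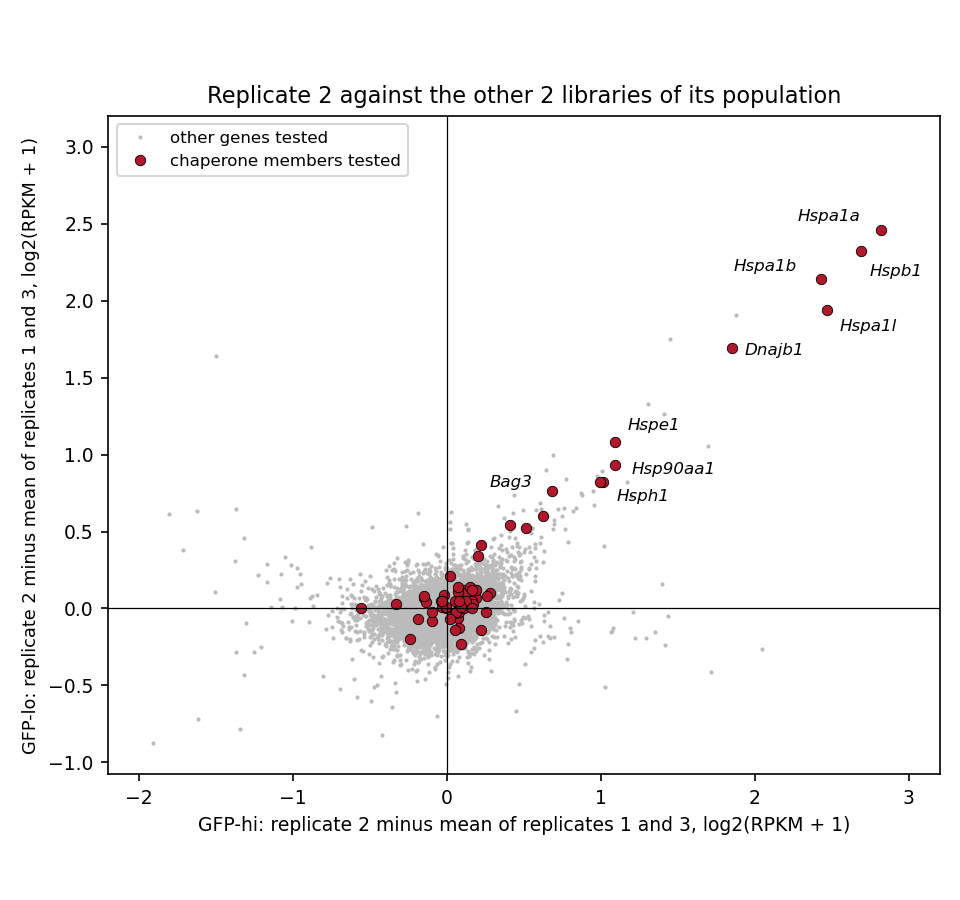
Each point is a gene, placed by the log2(RPKM + 1) of replicate 2 minus the mean of replicates 1 and 3, in GFP-hi on the x axis and in GFP-lo on the y axis, with the 67 tested members in red and the other genes tested in grey. Hspa1a lies at 2.82 and 2.46 and Hspe1 at 1.09 and 1.08, so the members that were high were high in both populations, while most members lie near 0.

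The 74 members together summed to 2630, 5946 and 2667 RPKM in GFP-hi and to 2797, 6260 and 2835 RPKM in GFP-lo. Without Hspa1a and Hspa1b the sums were 2113, 2941 and 2171 RPKM in GFP-hi and 2059, 2893 and 2159 RPKM in GFP-lo. A list of immediate early genes, which are induced within minutes by signals to the cell, and of genes linked to cell dissociation was high in the same libraries. It is called the immediate early list here, though not all of its genes are of that kind. Of its 28 genes tested, 15 had both replicate 2 libraries above the other 4 and none had both below, against 9.35% and 8.21% of all genes tested. The list summed to 4090, 5370 and 4010 RPKM in GFP-hi and to 5020, 6050 and 4870 RPKM in GFP-lo. Egr1 had 18.2, 50.5 and 23.5 RPKM in GFP-hi and 23.2, 60.8 and 29.7 RPKM in GFP-lo. Nr4a1, whose regulatory sequence drives the reporter, had 56.6, 90.9 and 37 RPKM against 63.1, 84.9 and 33.8 RPKM. The part of the immediate early list in the chaperone result was not tested. The depth of the replicate 2 libraries, 33952000 and 28414000 reads, lay inside the range of the others.

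A list kept apart from the members held heat shock factors, the Hsf1-binding protein gene Hsbp1 and genes known to answer Hsf1. Of 9 tested, 6 had both replicate 2 libraries above the others and none both below. Over all genes tested 9.35% were above and 8.21% below. The lists were chosen with earlier results of these data known, so their counts are a description. Zfand2a, a proteasome-linked stress gene, had 10.5, 20.2 and 10.6 RPKM in GFP-hi and 11.3, 18.2 and 9.79 RPKM in GFP-lo, and Rgs2, a G-protein regulator that slows translation under stress, had 30.2, 42.8 and 26.5 RPKM against 24.1, 37.3 and 23 RPKM. Hsf1 itself, at a mean of 12.5 RPKM, was not among the 6. Of 22 HSP90 and HSP70 co-chaperones tested 8 were above, led by the HSP90 activators Ahsa2 (4.55, 5.63 and 4.47 RPKM against 4.96, 5.85 and 4.43 RPKM) and Ahsa1 (36.6, 43.7 and 37.3 RPKM against 33.2, 39.6 and 36.4 RPKM). Of 22 endoplasmic reticulum chaperones and stress genes 2 were above and 2 below, close to the shares over all genes, and of 11 mitochondrial quality control genes 0 were above and 1 below. The stress factor Atf4 led the former, with 75.1, 92.3 and 72.5 RPKM against 80.7, 92 and 76.5 RPKM. Of 8 further TRiC and prefoldin genes 1 was above, the prefoldin subunit Vbp1.

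The question the sort addresses is how GFP-hi differs from GFP-lo. Dnaja4 fell and Dnajc9 rose in GFP-hi, and no other member passed the test (limma on log2(RPKM + 1), adjusted p under 0.05 over all genes tested). Cd40lg, the 1 listed gene of the CD4 T cell markers, was also lower in GFP-hi, with 16.5, 22.7 and 14.2 RPKM against 37, 46.8 and 35.4 RPKM (log2 fold change -1.13, limma adjusted p = 0.011), and its part in the differences given here was not tested. The members called are 2 of 67 tested (2.99%), against 3.95% of all genes tested, with 1 member higher against 2.46% and 1 lower against 1.49%. Without an adjustment 15 members (22.4%) had a p under 0.05, against 20.2% of genes tested. The median log2 fold change of the members was 0.02, as was that of all genes tested. A positive fold change was found in 42 of 67 members (62.7%), against 55.5% of genes tested, and in 32 of 67 with trimmed mean of M values scaling, so no direction holds for the members as a whole.

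Dnaja4 (Entrez 58233), a cytosolic J-domain partner of HSP70, had 5.57, 6.13 and 5.09 RPKM in GFP-hi and 10.7, 9.88 and 8.75 RPKM in GFP-lo. No GFP-hi value reached the lowest GFP-lo value. Averages were 5.6 ± 0.52 and 9.77 ± 0.969 RPKM (SD, n = 3 each), a log2 difference of -0.71 ± 0.087 (SE; limma, adjusted p = 0.0054). It kept this call in all 17 alternative analyses, with adjusted p values from 0.00042 to 0.046. The replicate 2 libraries were at 1.15 and 1.02 times the others of their population. Dnaja4 (chr9:54698873-54716315, plus strand, mm10) and Wdr61 (chr9:54714735-54734519, minus strand) overlap at their ends, and 51.9% of the 50-base stretches of the longest Dnaja4 transcript occur in Wdr61 on one strand or the other. The kit does not mark strand, so their reads cannot be told apart there. For Wdr61 the log2 difference was 0.17, opposite in sign (limma, adjusted p = 0.21).

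Dnajc9 (Entrez 108671) encodes a J-domain protein that also holds histones H3 and H4 before they enter chromatin. It had 40.1, 42.3 and 40.3 RPKM in GFP-hi and 31.9, 34.8 and 32.6 RPKM in GFP-lo, with no overlap. Averages were 40.9 ± 1.2 and 33.1 ± 1.51 RPKM (SD, n = 3 each), a log2 difference of 0.29 ± 0.055 (SE; limma, adjusted p = 0.027). The sign stayed positive in all 17 alternatives, but the call was lost whenever any of the 6 libraries was left out (adjusted p from 0.051 to 0.11), and also without both replicate 2 libraries (adjusted p = 0.075).

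**Figure D3:**
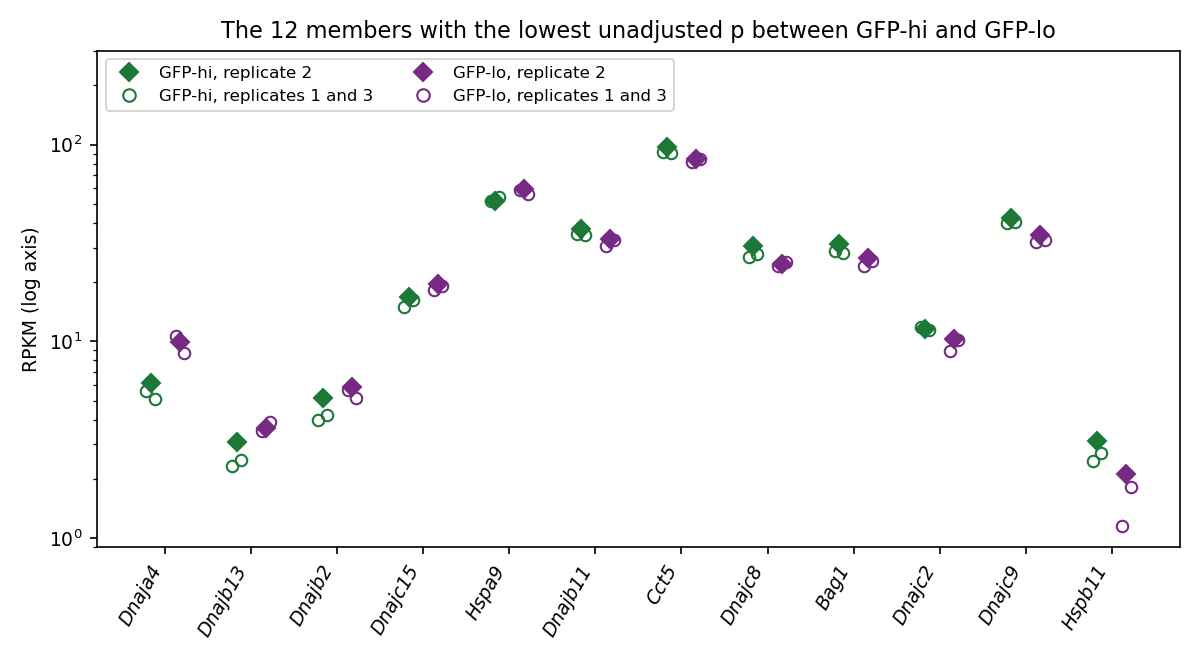
RPKM on a log axis in each library of the 12 members with the lowest unadjusted p, ordered by log2 fold change, with GFP-hi in green, GFP-lo in purple and replicate 2 as filled diamonds. Dnaja4 shows the widest gap, 5.6 against 9.77 RPKM on average, and the populations overlap in Dnajb2, where GFP-hi replicate 2 (5.18 RPKM) lies among the GFP-lo values.

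Several members had separate groups without passing the test. Groups did not overlap in 16 of 67 members (23.9%), against 26.9% of genes tested, with GFP-hi above in 12 (17.9%, against 17.1%) and GFP-lo above in 4 (5.97%, against 9.84%). Dnajb13, known from sperm tails, had 2.32, 3.07 and 2.51 RPKM in GFP-hi and 3.5, 3.62 and 3.9 RPKM in GFP-lo (log2 fold change -0.37, limma adjusted p = 0.064). Of its 50-base stretches 10.1% occur in Ucp2, which had a mean of 65.1 RPKM and a log2 difference of 0.23, opposite in sign, so how many reads of this low gene came from Ucp2 is uncertain. It passed when scaled by the trimmed mean of M values (adjusted p = 0.048), under array quality weights (0.0038) and without GFP-hi replicate 2 (0.024), with up to 0.19 over the alternatives. Dnajc15, a mitochondrial inner membrane protein named after its values were seen, had 15, 16.9 and 16.2 RPKM against 18.3, 19.5 and 19.2 RPKM (log2 fold change -0.23, limma adjusted p = 0.08). It passed with the same scaling (adjusted p = 0.048) and with array quality weights (0.0098), with up to 0.24 elsewhere. Hspb11, which despite its symbol is a part of the transport machinery of cilia, had 2.46, 3.13 and 2.71 RPKM against 1.16, 2.13 and 1.82 RPKM (log2 fold change 0.49, limma adjusted p = 0.098). Dnajc2, the ribosome partner of Hspa14, had 11.8, 11.5 and 11.4 RPKM against 8.99, 10.3 and 10.2 RPKM (log2 fold change 0.21, limma adjusted p = 0.12). Both passed with array quality weights alone, at adjusted p = 0.038 and 0.04, with up to 0.21 and 0.26 elsewhere.

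For the heat-inducible members the intervals were wide with all 6 libraries, since the fit counts the spread between replicate 2 and the other libraries as error. The 95% interval of the log2 difference of Hspa1a, -0.40 ± 0.88 (SE), reached from -2.44 to 1.63 (limma, adjusted p = 0.85), and that of Hspb1 ran from -1.73 to 2.14 and that of Dnajb1 from -1.66 to 1.07. Within each side of the replicate 2 division the GFP-lo values of Hspa1a, Hspa1b, Hspa1l, Dnajb1 and Bag3 exceeded the GFP-hi values. Hspe1 and Hspd1 went the other way on both sides, with 125 against 102 RPKM and 110 against 108 RPKM in replicate 2 of GFP-hi and GFP-lo. In replicate 2, with 1 library a population, Hsp90aa1, Hsph1 and Hspb1 were also higher in GFP-hi. In the other 4 libraries Hsph1 was lower in GFP-hi, at 22.6 and 22.6 against 22.8 and 24.1 RPKM, and Hsp90aa1 and Hspb1 overlapped. The heat-inducible members thus shared no direction in these values. Both replicate 2 libraries were set apart with the levels of heat-shock genes known. P-values of a fit without them thus follow a choice made on these same values. In that fit, with 2 samples a population, Hspa1a had a log2 fold change of -0.52 ± 0.072 (SE; limma, adjusted p = 0.046, against 0.85 with all libraries and up to 0.98 over the alternatives). There, 211 and 235 RPKM in GFP-lo stood against 152 and 158 RPKM in GFP-hi. In the same limma fit Hspa1b had a log2 fold change of -0.46 (adjusted p = 0.054), Bag3 -0.57 (adjusted p = 0.065) and Dnajb1 -0.35 (adjusted p = 0.11). Hspe1 and Hspd1 had positive log2 fold changes there, 0.28 and 0.22 (limma, adjusted p = 0.22 and 0.17). Only Hspa1a and Dnaja4 passed there among 66 members (3.03%), both lower, against 0.96% of genes tested in either direction, 0.458% lower and 0.501% higher. Genes of the immediate early list were mostly lower in GFP-hi too in that fit. A negative fold change was found in 23 of 28, against 4353 of 9379 genes tested, and 3 were lower by the test. Their part in the differences of the members was not tested.

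**Figure D4:**
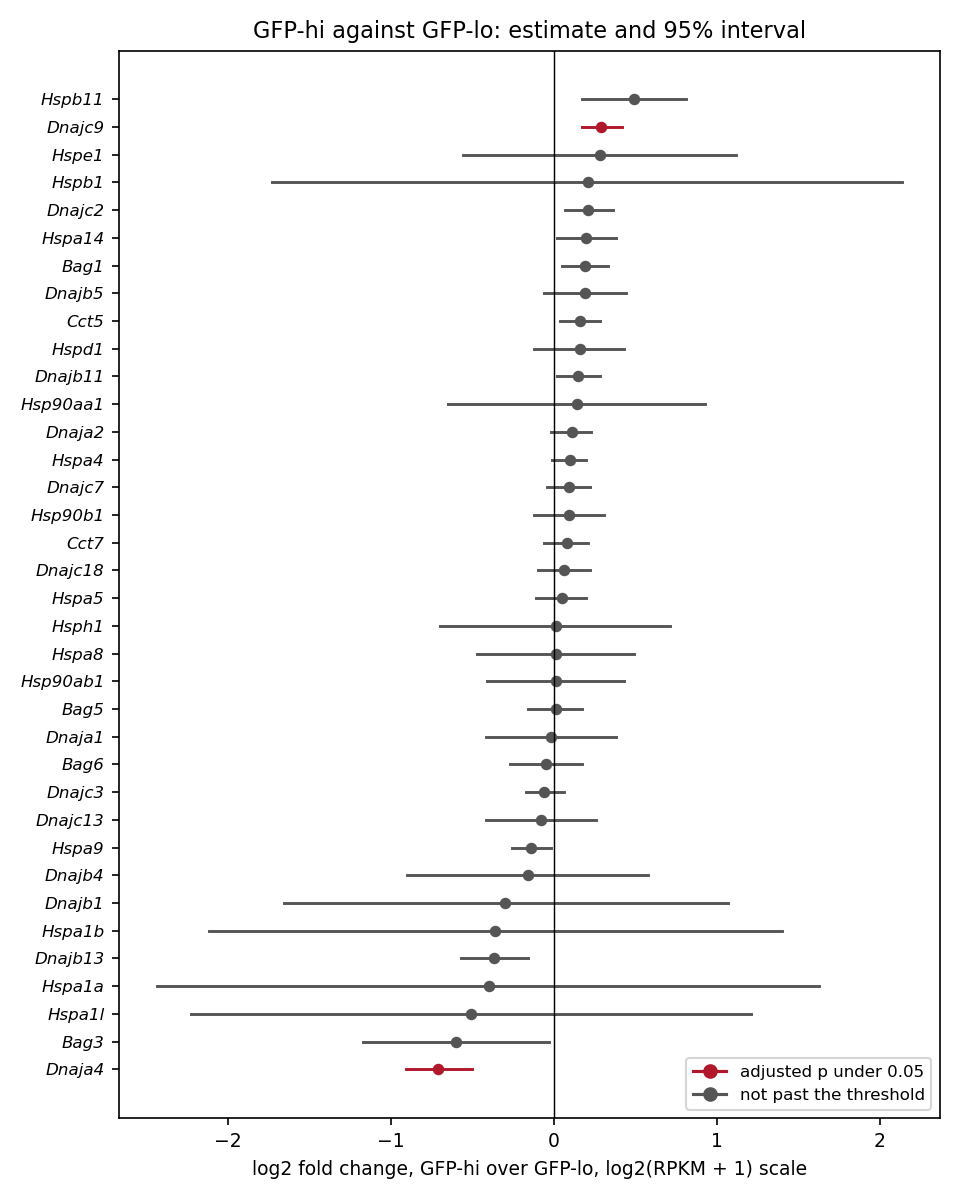
Log2 fold change of GFP-hi over GFP-lo on the log2(RPKM + 1) scale for 36 members, as points with 95% intervals from limma, in red where the adjusted p was under 0.05. Dnaja4 (-0.71) and Dnajc9 (0.29) are red, and the heat-inducible Hspa1a, Hspa1b, Hspa1l, Hspb1 and Dnajb1 have the widest intervals.

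By family, the 7 CCT genes, subunits of TRiC, had a median log2 fold change of 0.08 and a positive sign in 7 of 7, which became 6 of 7 under quantile normalization, scaling by the trimmed mean of M values or array quality weights, and when replicate 2 of GFP-hi or replicate 1 of GFP-lo was left out, and none passed. Cct5 had 91.7, 97.7 and 90.3 RPKM in GFP-hi and 81.4, 84.4 and 84.1 RPKM in GFP-lo, with separate groups (log2 fold change 0.16, limma adjusted p = 0.15). Cct7 had 88.3, 96.2 and 88.9 RPKM against 83.5, 90.5 and 85.3 RPKM and overlapped. Tcp1, the remaining subunit, and 7 prefoldin and related genes had a positive fold change in 8 of 8, also with median centring, quantile normalization and trimmed mean of M values scaling, but in 5 of 8 under array quality weights, in 6 of 8 without both replicate 2 libraries or without that of GFP-hi alone, and in 7 of 8 when replicate 1 of GFP-lo was left out. None passed, and 1 was higher under array quality weights. The 9 DNAJB genes tested had a median of -0.16 and a negative sign in 6 of 9, which became 4 of 9 without GFP-lo replicate 2, and none passed. Dnajb11, which partners Hspa5, did not overlap between the populations, at 35.2, 37.4 and 34.9 RPKM against 30.7, 33 and 32.8 RPKM (log2 fold change 0.15, limma adjusted p = 0.19). Dnaja2, Dnajc7 and Dnajc3, the most abundant other J-domain genes, had log2 fold changes of 0.11, 0.09 and -0.06 (limma, adjusted p = 0.34, 0.43 and 0.59).

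**Figure D5:**
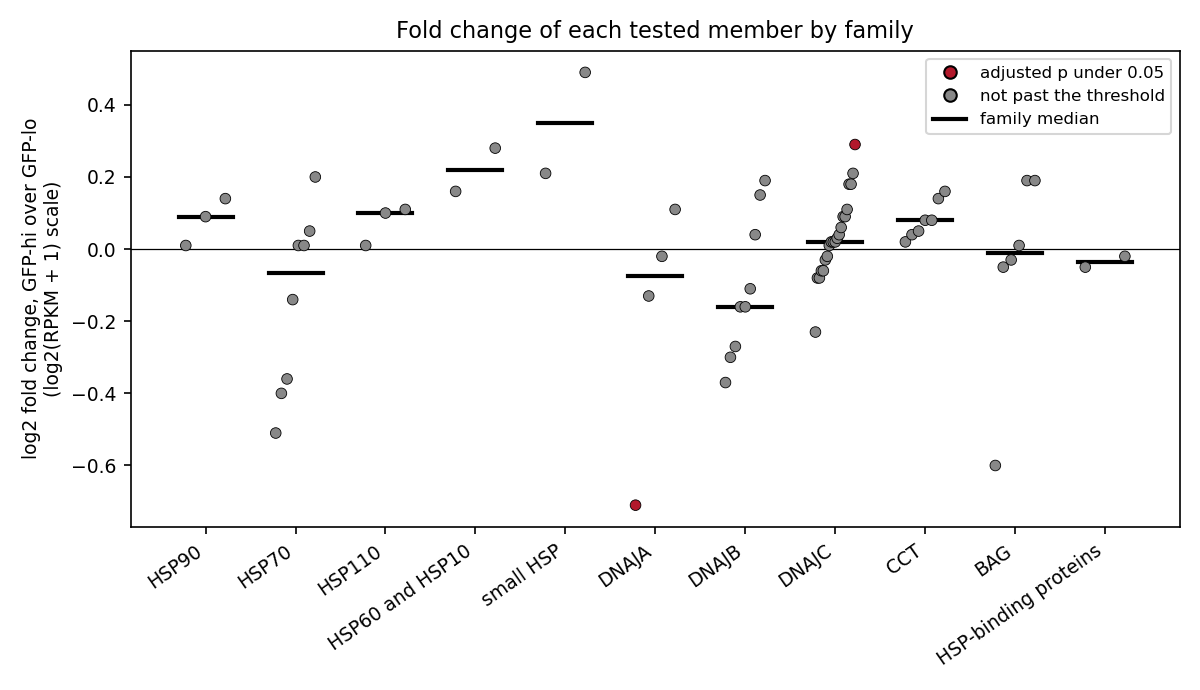
Log2 fold change of GFP-hi over GFP-lo for each of the 67 tested members by family, with the family median as a bar. Red marks Dnaja4 and Dnajc9, the DNAJC median lies at 0.02, and the DNAJB median lies at -0.16.

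Among the pathway genes outside the members, Pdia6, a disulfide isomerase of the endoplasmic reticulum, was higher in GFP-hi, with 41.3, 42.7 and 43.8 RPKM against 36, 35.4 and 36.5 RPKM (log2 fold change 0.24, limma adjusted p = 0.04), and no other of 22 genes of that list passed. The call was lost in each fit without 1 library (adjusted p up to 0.18). Of the immediate early list Socs3, a brake on cytokine signals, was lower, with 27.3, 45.6 and 36.6 RPKM against 63.4, 76.9 and 68.2 RPKM (log2 fold change -0.93, limma adjusted p = 0.021; up to 0.085 without 1 library). A negative fold change was found in 22 of the 28 genes of that list, against 4164 of 9351 genes tested. None of 9 heat shock factor and target genes, 22 co-chaperones, 8 TRiC and prefoldin genes and 11 mitochondrial quality control genes passed, and their median log2 fold changes were 0.02, 0.04, 0.12 and 0.03, against 0.02 over all genes tested.

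The 7 members that were not tested, Dnajb14, Dnajc6, Dnajc12, Dnajc25, Dnajc28, Hspa2 and Hspb6, had mean levels from 0.203 to 0.93 RPKM. Hspa2, an HSP70 gene of germ cells singled out after its values were seen, had 0.536, 1.31 and 0.551 RPKM in GFP-hi and 0.992, 1.45 and 0.742 RPKM in GFP-lo, so that replicate 2 was the highest in each population there too. The levels of the members as a whole spanned from 0.203 to 951 RPKM on average.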

How the data were processed

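Polyadenylated RNA of 3 GFP-hi and 3 GFP-lo samples had been amplified with SMART-seq v4 and made into Nextera XT libraries, per the labels' protocols. The authors deposited 1 table of RPKM per gene, and the submitters' processing notes name STAR and mm10. The counter, the annotation and the filter behind the 11162 genes are not given in the sources used here, and 14 symbols stand in the table as dates. Depth was recovered from the RPKM step of 1 read (92.2% to 94.2% of low values lay within 0.1 of a whole read).

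Genes with a mean of at least 1 RPKM (9351) were tested on log2(RPKM + 1) with limma 3.58.1 (R 4.3.3, eBayes with trend, Benjamini-Hochberg over all tested). On data simulated for this comparison with 9351 genes, 97% of genes changed by 1 log2 unit were recovered and 4.85% of calls were false. The simulated noise was independent between libraries, without the pattern shared by the replicate 2 libraries. Member fold changes ran from -0.71 to 0.49, so the 97% does not give the recovery of changes of their size. The 17 alternatives changed the pseudocount, filter, scaling, variance model or libraries. Python 3.11.15 was used otherwise. Sharing between genes was counted as common 50-base stretches of GENCODE M21 transcripts.

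Genes named were every called member, the 2 of highest mean level per family, the 5 extreme fold changes each way, the 10 highest and 5 lowest in replicate 2, and a fixed set of well-known chaperones. The members and lists were chosen with earlier results of these data known.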

Additional observations from a re-analysis of the deposited data

How the results depend on the processing

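No paired fit was made: the labels give no replicate numbers, and numbers taken from the order of the records pair no samples. Members lower in GFP-hi numbered 1 with all libraries, 3 under scaling by the trimmed mean of M values, 5 under array quality weights, 2 without both replicate 2 libraries and 1 to 2 with 1 library left out. Members higher numbered 1, and 3, 0 and 0 to 0 with array weights, without both replicate 2 libraries and with 1 left out. Listed genes higher numbered 1 against 0 with quantile normalization, 0 without trend, 4 with array weights, 0 without both replicate 2 libraries and 0 to 0 with 1 left out, and genes lower 1 against 2, 8 (array weights), 3 (without both) and 0 to 3. Members with both replicate 2 libraries below numbered 1, and 2 with median centring or trimmed mean of M values. That scaling also moved the calls over all genes from 230 higher and 139 lower to 199 and 183. The cause was not tested.

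Signs changed in log2 fold changes near 0 or with wide errors. With array weights these were Bag5 -0.08, Bag6 0.07, Dnajc13 0.08, Hsp90aa1 -0.25, Hsp90ab1 -0.17, Hspa5 -0.01, Hspa8 -0.25, Hspb1 -0.82, Hspe1 -0.17 and Hsph1 -0.39. With quantile normalization Bag5 was -0.01 and Hsph1 -0.02, and with trimmed mean of M values Bag5, Hsp90ab1, Hspa8 and Hsph1 were each -0.02. Without both replicate 2 libraries Bag5 was -0.03, Dnaja1 0.02, Dnajc13 0.10 and Hsph1 -0.05.

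With 1 library left out the log2 fold change ran from -1.34 to 0.42 for Hspa1a, -1.17 to 0.35 for Hspa1b, -1.33 to 0.14 for Hspa1l, -0.69 to 0.98 for Hspb1, -0.91 to 0.27 for Dnajb1 and -0.50 to 0.11 for Dnajb4. It ran from -0.22 to 0.45 for Hsp90aa1, -0.16 to 0.18 for Hsp90ab1, -0.0021 to 0.16 for Hsp90b1, -0.20 to 0.21 for Hspa8, -0.01 to 0.09 for Hspa5, -0.32 to 0.28 for Hsph1 and -0.08 to 0.64 for Hspe1. It ran from -0.16 to 0.15 for Dnaja1, -0.20 to 0.10 for Dnajc13, -0.06 to 0.06 for Bag5 and -0.11 to 0.03 for Bag6.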
